A study of Mus musculus with 22 samples.

Results

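The 39 genes described here mark macrophages and monocytes, the phagocytes that live in the gut wall or enter it from blood. They were chosen by name for what they are known to do in these cells, among 18194 genes that had a probe set of their own on the arrays. For each gene the probe set that varied most over the 22 arrays was used, and 20 of the 39 genes had a single probe set. The genes were ordered by role, and 6 genes of resident macrophages (Cd163, Mrc1, Cx3cr1, C1qa, C1qb and C1qc) were set beside 4 genes of recruited monocytes (Ccr2, Clec4d, Clec4e and Ms4a6d).

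RNA was measured in the colon of PPAR γ fl/fl; Villin Cre+ (VC+) mice and of PPAR γ fl/fl; Villin Cre- (VC-) mice. Both carried floxed alleles of PPAR γ, a nuclear receptor that responds to fatty acids, in a mixed FVB/C57BL/6 background. The Villin promoter drives the recombinase in the intestinal epithelium, so the deletion was aimed at epithelial cells and not at macrophages. Mice were given 2.5% dextran sodium sulfate (DSS), which injures the epithelium, in the drinking water, and colons were taken on days 0, 2 and 7. There were 3, 5 and 4 arrays of VC+ mice and 3, 3 and 4 arrays of VC- mice on days 0, 2 and 7. Since the labels do not state whether the arrays of a group were of different mice, p-values here cover only the spread among these samples, which may be technical. Ages are not given in the sources used here.

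Resident macrophages of the colon lie below the epithelium, clear dying cells and bacteria, and carry scavenger receptors and the first component of complement. Most are renewed from blood monocytes, which enter the tissue along chemokine gradients through the receptor CCR2 and lose monocyte genes as they mature. When the epithelium is injured, many more monocytes and neutrophils enter, and these carry C-type lectins that recognise fungal and bacterial sugars. Several of the 39 genes are also used by neutrophils, dendritic cells or all leukocytes.

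All values are log2 signals, so a difference of 1 is a doubling. The median of an array lay between 3.41 and 3.55, and a level below it was read as background. The arrays correlated with each other at 0.90 to 0.996 over all genes. The epithelial genes Epcam (8.76 to 10.56) and Vil1 (8.46 to 12.85) were high on every array. The lowest level of each was in the VC- day 7 group, and Vil1 was at 11.88 or more in every other group. The smooth muscle gene Des, at 9.19 to 11.75, was also high throughout, so the samples held more than epithelium. The targeted gene, Pparg, was at 8.50 to 8.83 on VC+ arrays and 9.58 to 9.63 on VC- arrays on day 0. On day 2 Pparg was at 6.87 to 9.54 on VC+ arrays and 9.87 to 10.96 on VC- arrays, without overlap. On day 7 it was at 6.26 to 10.35 on VC+ arrays and 7.39 to 9.82 on VC- arrays, which overlap. Whether its probes lie in the deleted exons is not known here. Pancreatic trypsinogen RNA (Prss2) was above 8 on 3 arrays, which were VC+ day 7 replicate 4, VC- day 7 replicate 2 and VC- day 0 replicate 3. Xist, an RNA of female cells, was above 8 on 6 arrays and on none of the day 7 arrays. The distal colon gene Hoxb13 ranged from 2.88 to 12.42 among the VC+ day 0 arrays and from 7.29 to 9.67 among the VC- day 0 arrays. On day 2 it was at 3.07 to 12.42 on VC+ arrays and 2.88 to 3.08 on VC- arrays. On day 7 it was at 3.07 to 6.88 on VC+ arrays and 2.86 to 9.62 on VC- arrays. Its level was thus not balanced over the groups compared.

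Most of the 39 genes were higher on day 7 of DSS than on day 0 in both genotypes. In VC+ colons 14 of the 37 genes that could be tested rose and none fell, against 1.32% of all 9097 genes tested that rose and 0.429% that fell. In VC- colons 23 of the 37 rose and none fell, against 5.53% of all genes tested that rose and 5.06% that fell. The median log2 change over the 37 genes was 1.97 in VC+ colons and 1.98 in VC- colons, while the medians over all genes tested were -0.02 and -0.09. The largest rises of the 39 among the called genes were those of Clec4d, Ms4a4c and Ms4a6d in VC+ colons and of Gpnmb, Clec4d and Ms4a6d in VC- colons. In these samples of whole tissue, a larger number of macrophages and more RNA per macrophage cannot be told apart. The test was limma's moderated test with Benjamini-Hochberg adjustment over the 9097 more variable genes, with adjusted p under 0.05 as the threshold, and the genes it called are said to rise or fall.

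**Figure D1:**
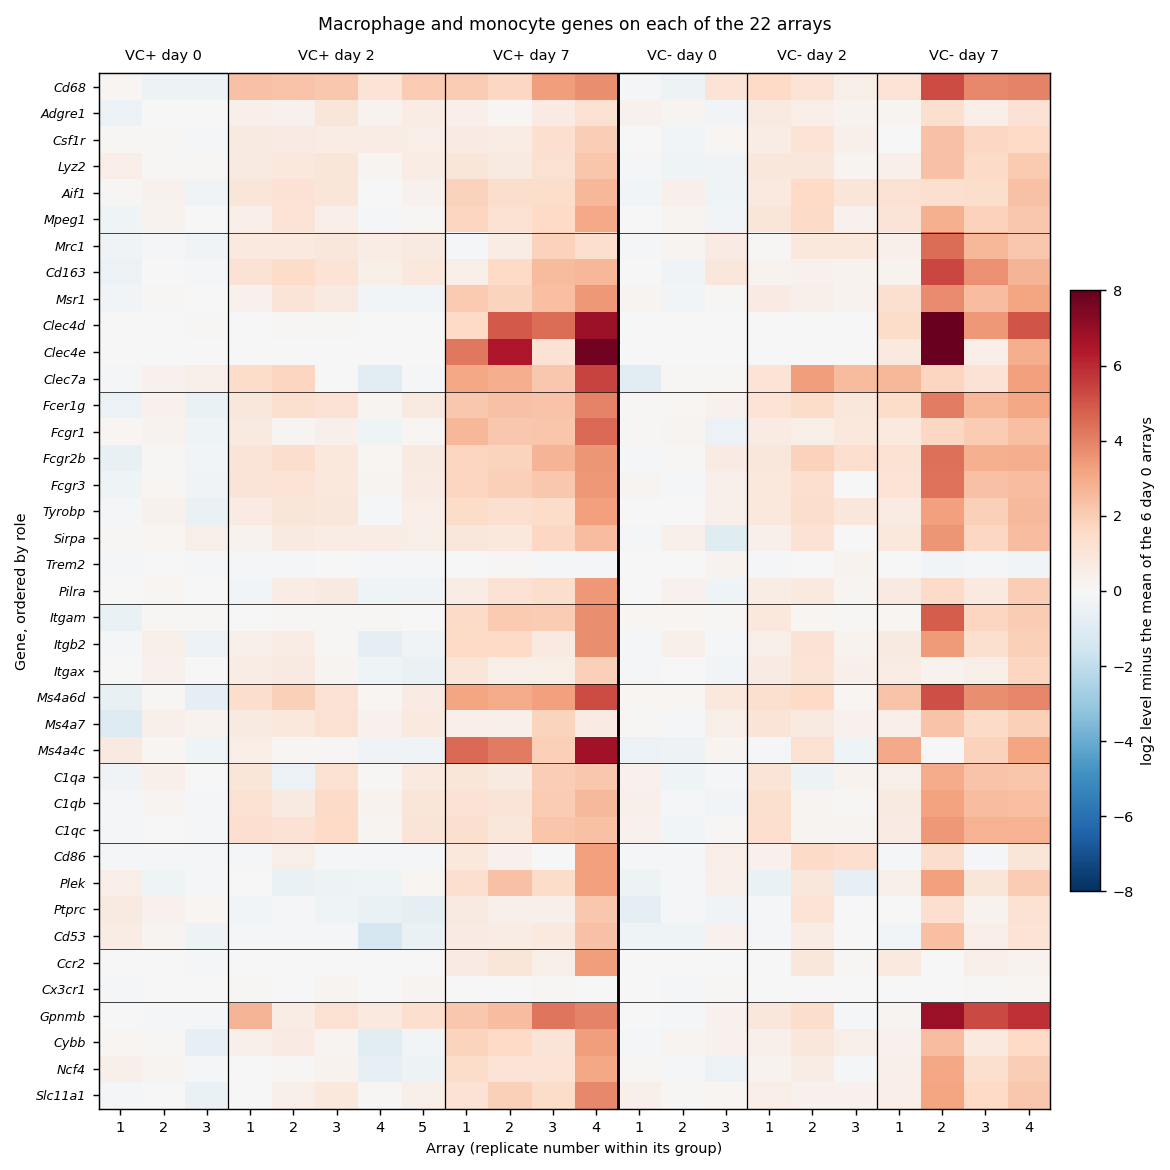
Heat map of the 39 macrophage and monocyte genes (rows, by role) on the 22 arrays (columns, by genotype and day), coloured by the log2 level minus the mean of the 6 day 0 arrays. Day 7 columns are the reddest in both genotypes, and replicate 4 of VC+ and replicate 2 of VC- stand out within them.

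Of the 37 genes, 34 (91.9%) were at an unadjusted p under 0.05 on day 7 in each genotype, against 13.7% of all genes tested in VC+ colons and 32.4% in VC- colons. Without overlap, every day 7 array lay above every day 0 array for 35 of the 37 genes in VC+ colons, against 9.61% of all genes tested. The same held for 25 of the 37 genes in VC- colons, against 8.62% of all genes tested. The 2 genes left out of the tests for low variation were Cx3cr1, the fractalkine receptor, at 4.55 to 4.89 over all 22 arrays, and Trem2, a lipid receptor of macrophages, at 3.22 to 3.71. Leaving out 1 array moved the VC+ count to 4 (VC+ day 0 replicate 3 left out), 5 (VC+ day 7 replicate 4) or 6 (VC+ day 0 replicate 1 or 2), and the VC- count to 5 (VC- day 0 replicate 3), 8 (VC- day 0 replicate 2), 14 (VC- day 7 replicate 4) or 15 (VC- day 0 replicate 1, or VC- day 7 replicate 2). Fitting only the 2 groups compared left 1 call in VC+ colons and 0 in VC- colons, with 31 and 29 genes at an unadjusted p under 0.05, and leaving out the 6 arrays with Xist signal left 0 in each, with 26 and 28.

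The 2 genotypes shared 11 of the called genes, which were Cd68, Fcer1g, Fcgr1, Fcgr2b, Fcgr3, Aif1, Ms4a6d, Msr1, Clec4d, Clec7a and Mpeg1. They made up 78.6% of the genes called in VC+ colons and 47.8% of those called in VC- colons. Ms4a4c, Cybb and Slc11a1 passed in VC+ colons alone, and 12 genes, among them Mrc1, Cd163, the 3 C1q chains and Gpnmb, passed in VC- colons alone. Adgre1, Itgam, Itgb2, Itgax, Clec4e, Cd86, Ccr2, Pilra, Plek, Ptprc and Cd53 passed in neither. A call in 1 genotype alone is not a difference between them, and no gene passed the test of that difference, which is given further on. Fcer1g, Fcgr1, Ms4a6d and Msr1 stayed called in VC+ colons whichever array was left out, and Fcer1g, Fcgr2b, Ms4a6d and Msr1 did so in VC- colons.

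**Figure D2:**
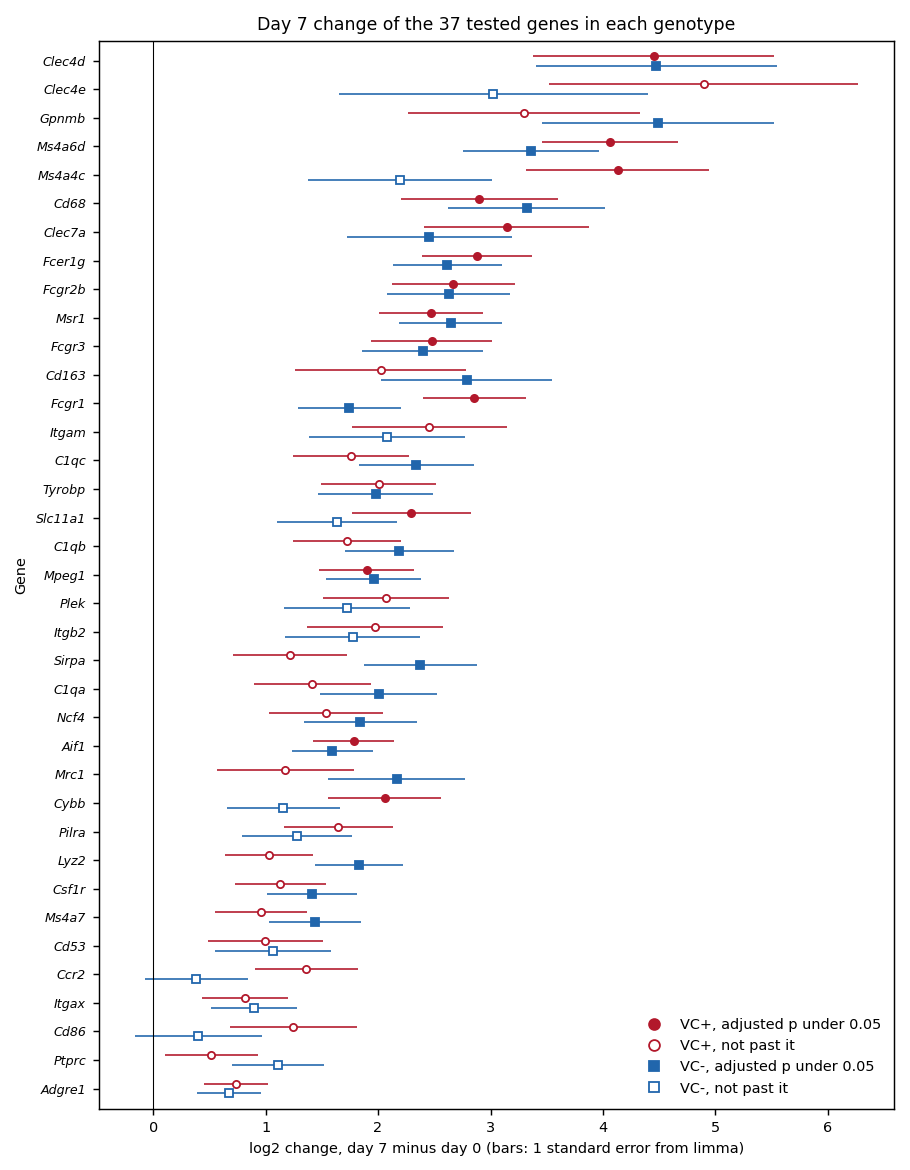
Log2 change of the 37 tested genes on day 7 against day 0 with its standard error, VC+ drawn above VC- for each gene and filled points marking an adjusted p under 0.05. In both genotypes every point lies above 0, from 0.52 for Ptprc to 4.90 for Clec4e in VC+ colons and from 0.38 for Ccr2 to 4.49 for Gpnmb in VC- colons.

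Among the general markers of the lineage, Cd68 encodes a glycoprotein of the macrophage lysosome. Its level was 7.56, 7.22, 8.88 and 9.30 on the VC+ day 7 arrays, against 5.71, 5.16 and 5.16 on the VC+ day 0 arrays. On the VC- arrays it was 6.66, 10.78, 9.38 and 9.52 on day 7, against 5.46, 5.17 and 6.66 on day 0. All 4 VC+ day 7 arrays were above their day 0 arrays, whereas VC- day 7 replicate 1 was level with the highest VC- day 0 array. Cd68 rose by 2.90 ± 0.70 (log2 ± SE, limma adjusted p = 0.0404) in VC+ colons and by 3.32 ± 0.70 (adjusted p = 0.0101) in VC- colons. Csf1r, the receptor for the growth factor that macrophages need to survive, changed by 1.13 ± 0.40 in VC+ colons (adjusted p = 0.195) and rose by 1.41 ± 0.40 in VC- colons (adjusted p = 0.0369). Lyz2, the lysozyme of myeloid cells, was at 12.09 to 13.58 on the VC+ day 7 arrays, against 11.45 to 11.90 on the VC+ day 0 arrays, and at 11.75 to 13.74 against 11.05 to 11.28 on the VC- arrays. It changed by 1.03 ± 0.39 in VC+ colons (adjusted p = 0.228) and rose by 1.83 ± 0.39 in VC- colons (adjusted p = 0.0106). Adgre1, which encodes the macrophage antigen F4/80, had a smaller change that did not pass in either genotype, at 0.74 ± 0.28 in VC+ colons and 0.68 ± 0.28 in VC- colons. Mpeg1, a pore-forming protein of the phagosome, rose by 1.90 ± 0.42 in VC+ colons and by 1.96 ± 0.42 in VC- colons, and Aif1, an actin-binding protein of activated macrophages, by 1.78 ± 0.36 and 1.59 ± 0.36.

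The scavenger receptors and lectins bind modified lipoproteins, haemoglobin or microbial sugars. Cd163, the receptor that takes up haemoglobin bound to haptoglobin, was at 8.14, 9.25, 10.18 and 10.34 on the VC+ day 7 arrays, against 7.18, 7.70 and 7.49 on the VC+ day 0 arrays. The VC- arrays were at 7.93, 13.04, 11.33 and 10.42 on day 7, against 7.71, 7.38 and 8.57 on day 0. Again VC- day 7 replicate 1 lay among the day 0 arrays of its genotype, and replicate 2 was the highest of the 22. Cd163 changed by 2.02 ± 0.76 in VC+ colons (limma adjusted p = 0.228) and rose by 2.79 ± 0.76 in VC- colons (adjusted p = 0.0326).

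Mrc1, the mannose receptor of resident macrophages, had 8.54, 9.25, 10.50 and 9.96 on the VC+ day 7 arrays, against 8.33, 8.47 and 8.36 on the VC+ day 0 arrays. On VC- arrays it had 9.02, 13.11, 11.28 and 10.80 on day 7, against 8.54, 8.85 and 9.28 on day 0. On VC- day 7, 3 of the 4 arrays were above every VC+ day 7 array, and the remaining one was below all VC+ day 7 arrays but replicate 1. Mrc1 changed by 1.17 ± 0.61 in VC+ colons (limma adjusted p = 0.418) and rose by 2.17 ± 0.61 in VC- colons (adjusted p = 0.0357).

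Msr1, the class A scavenger receptor, was at 7.98, 7.70, 8.33 and 9.35 on the VC+ day 7 arrays, against 5.66, 6.02 and 5.94 on the VC+ day 0 arrays. On VC- arrays it was at 7.19, 9.67, 8.35 and 9.03 on day 7, against 6.12, 5.65 and 5.98 on day 0. It rose by 2.47 ± 0.46 in VC+ colons (limma adjusted p = 0.00758) and by 2.65 ± 0.46 in VC- colons (adjusted p = 0.0033), with no overlap in either.

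Clec4d, a lectin that pairs with an activating adaptor and is used by monocytes and neutrophils, was at 4.56, 7.83, 7.40 and 9.84 on the VC+ day 7 arrays, against 2.91, 2.92 and 3.02 on the VC+ day 0 arrays. The VC- arrays were at 4.40, 10.86, 6.38 and 7.95 on day 7, against 2.94, 2.91 and 2.91 on day 0. Every day 0 and day 2 array was below its own median, whereas all 8 day 7 arrays were above theirs. Clec4d rose by 4.45 ± 1.07 in VC+ colons (limma adjusted p = 0.0404) and by 4.48 ± 1.07 in VC- colons (adjusted p = 0.0186).

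Clec4e (Mincle), a lectin that recognises mycobacterial glycolipid and dying cells, was also at background, near 2.01 to 2.04, on all day 0 arrays. It reached 6.24, 8.51, 3.15 and 9.75 on VC+ day 7, compared with 2.80, 9.92, 2.53 and 4.95 on VC- day 7. This gene had the widest spread of the 39 within both day 7 groups, with an SD of 2.90 in VC+ colons and 3.42 in VC- colons. Although all day 7 arrays were above all day 0 arrays, its change of 4.90 ± 1.37 in VC+ colons (limma adjusted p = 0.0888) and 3.02 ± 1.37 in VC- colons (adjusted p = 0.137) did not pass. The other probe set of Clec4e, below the array median on 19 arrays, changed by 1.17 in VC+ colons and 1.33 in VC- colons.

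Clec7a (Dectin-1), the receptor for fungal glucan, was at 9.09, 8.88, 8.13 and 11.41 on the VC+ day 7 arrays, against 5.91, 6.31 and 6.48 on the VC+ day 0 arrays. On VC- arrays it was at 8.67, 7.73, 7.14 and 9.30 on day 7, against 5.11, 6.08 and 6.07 on day 0. Both genotypes had day 7 arrays above all day 0 arrays, and the gene rose by 3.15 ± 0.74 in VC+ colons (limma adjusted p = 0.0334) and by 2.46 ± 0.74 in VC- colons (adjusted p = 0.0413). Gpnmb, a glycoprotein of lysosomes in lipid-laden macrophages, was at background on all day 0 arrays, at 2.56 to 2.99. Its level was 4.84, 5.10, 6.97 and 6.62 on the VC+ day 7 arrays, compared with 2.86, 9.54, 7.97 and 8.51 on the VC- day 7 arrays. The VC- group held both the lowest and the 3 highest of these 8 values. Gpnmb changed by 3.30 ± 1.03 in VC+ colons (limma adjusted p = 0.132) and rose by 4.49 ± 1.03 in VC- colons (adjusted p = 0.016).

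The Fc receptors bind antibody-coated particles and signal through adaptors with an immunoreceptor tyrosine-based activation motif (ITAM), encoded by Fcer1g and Tyrobp. Fcer1g was at 9.16, 9.33, 9.26 and 10.98 on the VC+ day 7 arrays, against 6.55, 7.35 and 6.50 on the VC+ day 0 arrays. On the VC- arrays it was at 8.46, 11.10, 9.65 and 10.12 on day 7, against 7.10, 7.16 and 7.38 on day 0. The days did not overlap in either genotype, and Fcer1g rose by 2.88 ± 0.49 in VC+ colons (limma adjusted p = 0.00411) and by 2.62 ± 0.49 in VC- colons (adjusted p = 0.00465). Tyrobp, which encodes DAP12, was at 9.43, 9.24, 9.39 and 11.25 on the VC+ day 7 arrays, against 7.79, 8.26 and 7.41 on the VC+ day 0 arrays. On the VC- arrays it was at 8.58, 11.20, 9.83 and 10.53 on day 7, against 7.93, 7.89 and 8.36 on day 0. As for Fcer1g, replicate 4 of VC+ and replicate 2 of VC- were the highest, and the days did not overlap. Tyrobp changed by 2.01 ± 0.51 in VC+ colons (adjusted p = 0.0523) and rose by 1.98 ± 0.51 in VC- colons (adjusted p = 0.0264).

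Fcgr1, the high-affinity IgG receptor, was at 7.87, 7.38, 7.42 and 9.74 on the VC+ day 7 arrays, against 5.39, 5.48 and 4.87 on the VC+ day 0 arrays. The VC- arrays were at 6.03, 6.85, 7.23 and 7.63 on day 7, against 5.34, 5.47 and 4.76 on day 0. Neither genotype's days overlapped, and 3 of the 4 VC- day 7 arrays lay below all VC+ day 7 arrays. Fcgr1 rose by 2.85 ± 0.46 in VC+ colons (limma adjusted p = 0.00274) and by 1.74 ± 0.46 in VC- colons (adjusted p = 0.0281). Its second probe set was flat.

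Fcgr2b, the inhibitory low-affinity receptor, was at 10.54, 10.58, 11.57 and 12.37 on the VC+ day 7 arrays, against 8.24, 8.94 and 8.60 on the VC+ day 0 arrays. On VC- arrays it was at 10.04, 13.23, 11.67 and 11.74 on day 7, against 8.72, 8.93 and 9.47 on day 0. The days did not overlap, and it rose by 2.67 ± 0.55 in VC+ colons (limma adjusted p = 0.0155) and by 2.63 ± 0.55 in VC- colons (adjusted p = 0.00979). Fcgr3, an activating low-affinity receptor, rose by 2.48 ± 0.54 in VC+ colons and by 2.40 ± 0.54 in VC- colons. Sirpa, the receptor that reads the CD47 signal on healthy cells, changed by 1.22 ± 0.50 in VC+ colons (adjusted p = 0.275) and rose by 2.38 ± 0.50 in VC- colons (adjusted p = 0.0106). Pilra, an inhibitory paired receptor, did not pass in either, at 1.65 ± 0.49 in VC+ colons and 1.28 ± 0.49 in VC- colons.

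The integrins attach leukocytes to vessel walls and complement-coated particles. Itgam (CD11b) changed by 2.46 ± 0.69 in VC+ colons and 2.08 ± 0.69 in VC- colons, and Itgb2 (CD18), the chain it pairs with, by 1.97 ± 0.60 and 1.77 ± 0.60. Itgax (CD11c), an integrin of dendritic cells and gut macrophages, changed by 0.82 ± 0.38 in VC+ colons and 0.90 ± 0.38 in VC- colons. None of the 3 passed in either genotype, and their adjusted p-values by limma were 0.0573 to 0.355. Itgam was below the array median on 9 arrays.

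The MS4A genes encode membrane proteins with 4 passes through the membrane, and Ms4a6d and Ms4a4c are transcribed in monocytes. Ms4a6d was at 10.08, 9.91, 10.21 and 12.15 on the VC+ day 7 arrays, against 6.33, 7.05 and 6.20 on the VC+ day 0 arrays. On VC- arrays its level was 9.19, 12.09, 10.65 and 10.85 on day 7, against 7.12, 7.11 and 7.77 on day 0. The days were far apart in both genotypes, and Ms4a6d had the lowest adjusted p of the 39 genes in VC+ colons, with a rise of 4.06 ± 0.60 (limma adjusted p = 0.00132), and rose by 3.36 ± 0.60 in VC- colons (adjusted p = 0.00375).

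Ms4a4c was at 8.90, 8.50, 6.30 and 11.09 on the VC+ day 7 arrays, against 5.11, 4.54 and 4.04 on the VC+ day 0 arrays. The VC- day 7 arrays were at 7.38, 4.33, 6.18 and 7.53, against 3.91, 3.97 and 4.61 on VC- day 0. VC- day 7 replicate 2, the array with the highest level of most of the 39 genes in its group, was the lowest here and lay within the day 0 range. Ms4a4c rose by 4.13 ± 0.82 in VC+ colons (limma adjusted p = 0.0122), and its change in VC- colons was 2.19 ± 0.82 (adjusted p = 0.0811). Ms4a7, a family member of mature macrophages, changed by 0.96 ± 0.41 in VC+ colons (adjusted p = 0.298) and rose by 1.44 ± 0.41 in VC- colons (adjusted p = 0.0369). The probe sets of Ms4a6d, Ms4a4c, Clec4d, Fcgr2b, Csf1r and Aif1 are of the kind that may also match related transcripts.

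C1qa, C1qb and C1qc encode the 3 chains of C1q, the complement protein that tags immune complexes and dying cells. C1qb was at 9.30, 9.18, 10.20 and 10.79 on the VC+ day 7 arrays, against 8.08, 8.37 and 7.98 on the VC+ day 0 arrays. On VC- arrays it was at 8.89, 11.36, 10.66 and 10.60 on day 7, against 8.57, 8.07 and 7.93 on day 0. Replicates 3 and 4 were the higher VC+ arrays and replicate 1 was the lowest VC- array, and the 3 chains had this order in common. C1qa was at 9.70, 9.43, 10.66 and 10.84 on the VC+ day 7 arrays, against 8.40, 9.10 and 8.73 on VC+ day 0, and at 9.15, 11.66, 10.96 and 10.92 on the VC- day 7 arrays, against 9.05, 8.36 and 8.60 on VC- day 0. C1qc was at 7.95, 7.57, 8.86 and 9.02 on the VC+ day 7 arrays, against 6.56, 6.71 and 6.49 on VC+ day 0, and at 7.30, 10.13, 9.43 and 9.47 on the VC- day 7 arrays, against 7.03, 6.43 and 6.77 on VC- day 0. For both genes every day 7 array was above every day 0 array of its genotype. In VC+ colons the changes of C1qa, C1qb and C1qc were 1.41 ± 0.52, 1.72 ± 0.48 and 1.76 ± 0.51 and did not pass (limma adjusted p = 0.217, 0.0888 and 0.105). All 3 chains rose in VC- colons, by 2.01 ± 0.52, 2.19 ± 0.48 and 2.34 ± 0.51 (adjusted p = 0.0265, 0.0132 and 0.0127).

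Ccr2, the receptor that brings monocytes out of the marrow and into tissue, was at 6.08, 6.42, 5.89 and 8.78 on the VC+ day 7 arrays, against 5.47, 5.48 and 5.35 on the VC+ day 0 arrays. On VC- arrays it was at 6.18, 5.47, 5.86 and 5.68 on day 7, against 5.40, 5.36 and 5.48 on day 0. A single array, VC+ day 7 replicate 4, carried most of the difference, and neither change passed, at 1.36 ± 0.46 in VC+ colons (limma adjusted p = 0.161) and 0.38 ± 0.46 in VC- colons (adjusted p = 0.567). The probe sets of Ccr2 disagreed, since another gave 1.70 in VC+ colons and 1.56 in VC- colons. A further set, below the array median on 20 arrays, gave 1.72 in VC+ colons and 0.30 in VC- colons. The last, below the median on all 22 arrays, gave 0.03 and -0.11. Cx3cr1 stayed flat, and its 4 values on day 7 were 4.70, 4.67, 4.77 and 4.62 in VC+ colons and 4.69, 4.67, 4.74 and 4.80 in VC- colons.

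Of the genes of the phagosome membrane and the oxidase that makes superoxide, Cybb (the catalytic subunit) rose by 2.06 ± 0.50 in VC+ colons (limma adjusted p = 0.0432) and changed by 1.16 ± 0.50 in VC- colons (adjusted p = 0.124). Slc11a1, which pumps metal ions out of the phagosome, rose by 2.30 ± 0.53 in VC+ colons (adjusted p = 0.0315) and changed by 1.63 ± 0.53 in VC- colons (adjusted p = 0.0539). Ncf4, a cytosolic subunit of the oxidase, changed by 1.53 ± 0.51 in VC+ colons (adjusted p = 0.152) and rose by 1.84 ± 0.51 in VC- colons (adjusted p = 0.0328). None of the 4 genes used by several kinds of leukocyte, Ptprc (CD45), Cd53, Plek and the costimulatory ligand Cd86, passed in either genotype, with changes of 0.52 to 2.07 in VC+ colons and 0.40 to 1.72 in VC- colons.

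**Figure D3:**
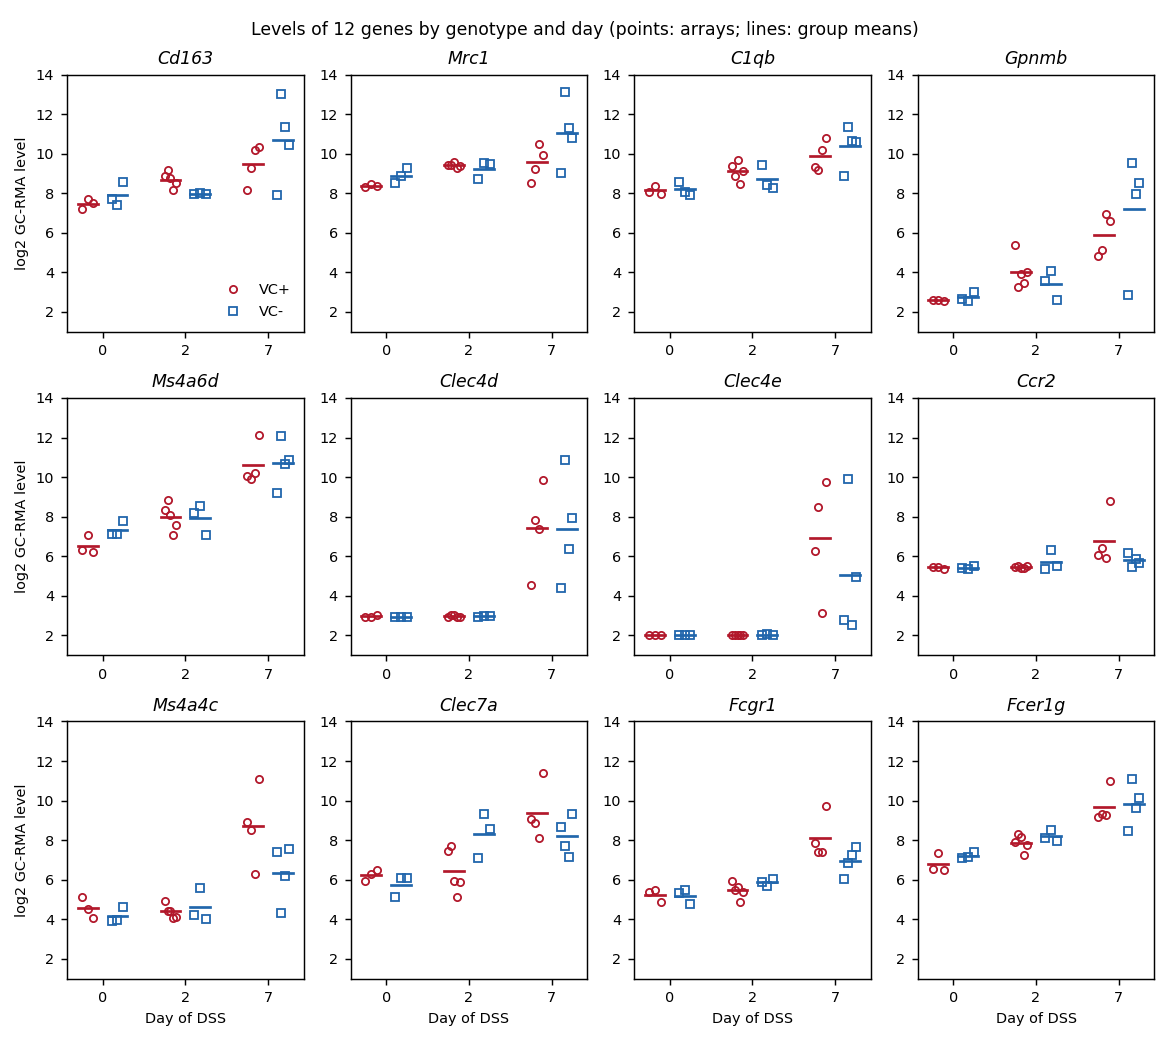
Log2 level of 12 of the genes on each array (points) by day of DSS, VC+ to the left of VC- on each day, with bars at the group means. Ms4a6d and Fcer1g separate the day 7 arrays of both genotypes from day 0, whereas Clec4e spans 2.53 to 9.92 on day 7 and Ccr2 is raised chiefly on 1 VC+ array.

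The promoters of these genes often held a motif that the choice of genes did not use. PU.1 is the transcription factor on which macrophages and other myeloid cells depend, and its core letters GAGGAA were searched on both strands from 250 bases before to 50 bases after each start. Of the 39 genes 29 had such a window in RefSeq (GRCm38.p6), and 20 of them (68.97%) held the core, against 31.25% of the 27025 genes with a window and 28.28% of all 32851 windows. The AP-1 motif TGANTCA was in 6 of the 29 (20.69%, against 8.973% of genes) and the C/EBP motif TTGCNNAA in 5 (17.24%, against 12.2%). These are matches of letters and not known binding sites. The 120 bases before the start are shown for 2 resident genes (Mrc1, C1qb), 1 recruited gene (Clec4e), and Fcgr1 and Ms4a4c, which were higher on the highest VC+ array than on the highest VC- array, each 5′ to 3′ on the gene's strand with the core, in either orientation, in capitals. They lie at chr2:14229294-14229413 (+), chr4:136886201-136886320 (-), chr6:123289872-123289991 (-), chr3:96293970-96294089 (-) and chr19:11407541-11407660 (+).
Mrc1: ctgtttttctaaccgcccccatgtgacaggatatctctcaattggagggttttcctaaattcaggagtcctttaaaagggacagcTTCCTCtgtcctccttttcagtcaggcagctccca
C1qb: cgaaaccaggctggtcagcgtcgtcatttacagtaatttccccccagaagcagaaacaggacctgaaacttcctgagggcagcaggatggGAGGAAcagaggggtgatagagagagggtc
Clec4e: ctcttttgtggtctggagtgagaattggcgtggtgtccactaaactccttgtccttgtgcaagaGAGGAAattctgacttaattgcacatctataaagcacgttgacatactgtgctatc
Fcgr1: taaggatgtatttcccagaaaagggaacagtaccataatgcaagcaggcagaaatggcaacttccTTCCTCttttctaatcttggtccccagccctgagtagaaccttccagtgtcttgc
Ms4a4c: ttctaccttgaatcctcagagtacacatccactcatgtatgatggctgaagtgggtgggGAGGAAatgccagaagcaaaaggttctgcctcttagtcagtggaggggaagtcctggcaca

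On day 2 no gene of the 39 passed the test in either genotype. The background on day 2 was 0.055% of all genes in VC+ colons and 0.011% in VC- colons. Changes were mostly upward, with 32 of the 37 tested genes above 0 in VC+ colons (median 0.43) and 36 in VC- colons (median 0.57). The largest were 2.18 for Cd68 in VC+ colons and 2.58 for Clec7a in VC- colons. At an unadjusted p under 0.05 there were 6 genes in VC+ colons (Cd68, Adgre1, Fcer1g, Ms4a6d, Ms4a7 and C1qc) and 4 in VC- colons (Lyz2, Aif1, Itgax and Clec7a). These are 16.2% and 10.8% of the 37, against 6.57% and 4.58% of all genes tested at the same threshold.

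Cd68 was at 7.88, 7.83, 7.69, 6.62 and 7.57 on the VC+ day 2 arrays, all above the VC+ day 0 arrays. On VC- day 2 it was at 7.17, 6.66 and 6.05, which overlapped VC- day 0. Clec7a showed the other pattern, with 7.45, 7.69, 5.95, 5.14 and 5.89 on VC+ day 2 and 7.09, 9.34 and 8.55 on VC- day 2. It overlapped day 0 in VC+ colons and lay above it in VC- colons, where its change was 2.58 ± 0.79 (limma adjusted p = 0.923). Every day 2 array was above every day 0 array for 11 of the 37 genes in VC+ colons, against 4.17% of all genes tested, and for 12 in VC- colons, against 7.83%. The VC+ genes were Cd68, Adgre1, Csf1r, Mrc1, Cd163, Fcgr2b, Fcgr3, Ms4a6d, C1qb, C1qc and Gpnmb. The VC- genes were Csf1r, Lyz2, Fcer1g, Fcgr1, Fcgr2b, Tyrobp, Aif1, Itgax, Msr1, Clec7a, Mpeg1 and Cybb, so Csf1r and Fcgr2b were in both. For Ptprc every VC+ day 2 array lay below every VC+ day 0 array. Clec4d stayed at 2.90 to 3.03 and Clec4e at 1.99 to 2.05 on all 8 day 2 arrays. Array quality weights, which give noisy arrays less say, brought the VC+ count to 10 (9 rose and 1 fell), against 1287 of all 9097 genes tested. A fit of only the groups compared brought the VC+ count to 2, against 48 of 9097.

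Between day 2 and day 7, 21 of the 37 genes rose in VC+ colons and 8 in VC- colons, and none fell. Over all genes tested 4.76% rose and 2.83% fell in VC+ colons, and 3.45% rose and 2.15% fell in VC- colons. Ms4a6d, Msr1 and Clec4d rose in both, which is 14.3% of the VC+ calls and 37.5% of the VC- calls. The other 18 VC+ calls included the Fc receptor genes Fcer1g, Fcgr1 and Fcgr2b, the integrin chains Itgam and Itgb2, and Ccr2, Clec4e, Clec7a and Ms4a4c, and the other 5 VC- calls were Cd68, Cd163, C1qb, C1qc and Gpnmb. Whether the day 7 against day 2 change differed between the genotypes was not tested, and in VC- colons Fcgr3 (1.82 ± 0.54, limma adjusted p = 0.0528) and Fcer1g (1.64 ± 0.49, adjusted p = 0.0535) lay just past the threshold. Fcgr1 rose by 2.63 ± 0.40 in VC+ colons (limma adjusted p = 0.00108) and Ms4a4c by 4.30 ± 0.72 (adjusted p = 0.00242), while in VC- colons their changes were 1.06 ± 0.46 and 1.75 ± 0.82 (adjusted p = 0.136 and 0.162). Cd163 changed by 0.79 ± 0.67 in VC+ colons (adjusted p = 0.529) and rose by 2.71 ± 0.76 in VC- colons (adjusted p = 0.0446). The median change was 1.53 in VC+ colons and 1.46 in VC- colons. Smooth muscle genes moved with the VC+ count, since all 5 of them fell in VC+ colons (median -1.60) and 0 in VC- colons (median 0.34), and their summed log2 level was 49.14 to 56.48 on VC+ day 7 arrays, against 57.11 to 61.02 on VC+ day 2 arrays. Their part in the counts was not tested. The VC+ count was 4 without VC+ day 7 replicate 4, and 10, 11, 12 and 13 without VC+ day 2 replicates 4, 5 and 1 and VC+ day 7 replicate 1. The VC- count moved by over 1.5 times for 19 of the 22 arrays left out, between 0 (VC- day 2 replicate 3 left out) and 24 (VC- day 7 replicate 1 left out). The VC+ and VC- counts were 0 and 0 without the arrays with Xist signal (20 and 5 genes at an unadjusted p under 0.05), 10 and 1 with the replicate block and 10 and 3 with Hoxb13 as a term, and the VC- count was 0 in a fit of only its 2 groups (16 genes at an unadjusted p under 0.05).

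In VC+ colons the resident genes changed less on day 7, on average, than the recruited genes, while in VC- colons the order depended on the array. In both genotypes the size of the difference depended on the probe sets used. The resident mean includes Cx3cr1, which was flat. The mean change of the resident genes from the day 0 mean was 0.64, 0.81, 1.78 and 1.84 on the VC+ day 7 arrays, against 2.41, 3.84, 2.34 and 5.80 for the recruited genes on the same arrays. On VC- day 7 arrays it was 0.41, 3.24, 2.32 and 2.08, against 1.31, 5.26, 2.03 and 3.03 for the recruited genes. The resident genes were below the recruited genes on all 4 VC+ arrays and on 3 of the 4 VC- arrays, the exception being VC- replicate 3. The resident mean minus the recruited mean was -1.77, -3.03, -0.56 and -3.96 on the VC+ arrays and -0.90, -2.02, 0.29 and -0.94 on the VC- arrays, which overlap. By count, 0 of the 5 resident genes tested rose in VC+ colons and 5 in VC- colons, whereas 2 of the 4 recruited genes, Clec4d and Ms4a6d, rose in each genotype, against 1.32% of all genes tested in VC+ colons and 5.53% in VC- colons. The median log2 change was 1.57 for the resident and 4.26 for the recruited genes in VC+ colons, and 2.18 and 3.19 in VC- colons. The difference of the medians, -2.69 in VC+ colons and -1.02 in VC- colons, was -1.12 in VC+ colons with the probe set of highest mean and -0.04 in VC- colons with the mean of each gene's probe sets.

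Clec4d and Clec4e were at background on days 0 and 2, which holds the mean of the 4 recruited genes near 0 on day 2, so the day 2 arrays were compared over Ms4a6d and Ccr2 alone, a choice made after seeing the data. On the VC+ day 2 arrays the resident mean was 0.92, 0.61, 1.08, 0.29 and 0.77, against 0.73, 0.99, 0.57, 0.06 and 0.34 for Ms4a6d and Ccr2. On the VC- day 2 arrays it was 0.66, 0.21 and 0.29, against 0.60, 1.25 and 0.10. The resident mean was the higher on 4 of 5 VC+ and 2 of 3 VC- day 2 arrays, with replicate 2 the exception in each. The baseline is the mean of all 6 day 0 arrays, where Ms4a6d had a mean of 6.53 in VC+ and 7.33 in VC- colons. Already on day 0 the resident mean was the higher on 3 of 3 VC+ and 1 of 3 VC- arrays. On day 7 it was the higher on 0 of 4 VC+ arrays and 2 of 4 VC- arrays over the same genes.

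**Figure D4:**
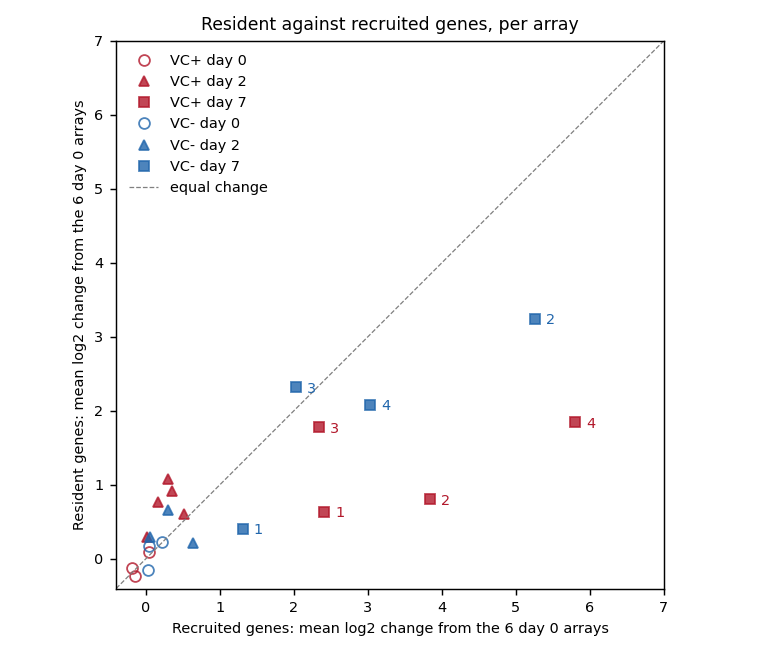
Mean log2 change of the resident genes (vertical) against that of the recruited genes (horizontal) on each array, relative to the mean of the 6 day 0 arrays, with the day 7 arrays numbered by replicate and a line where both are equal. VC+ day 7 replicate 4 lies farthest to the right, at 5.80 and 1.84, and VC- day 7 replicate 2 highest, at 5.26 and 3.24.

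No gene of the 39 passed the test between VC+ and VC- mice on any day. Of all genes tested 0.011% passed on day 0, 0.044% on day 2 and 0.0% on day 7. At an unadjusted p under 0.05 there were 0 of the 37 genes on day 0, 1 on day 2 (Clec7a) and 4 on day 7. These shares of 0%, 2.7% and 10.8% were below those over all genes tested, 6.6%, 12.3% and 14.2%, so the 4 genes of day 7 are given as values only. On day 7 Ms4a4c differed by 2.34 ± 0.76, Fcgr1 by 1.17 ± 0.42 and Ccr2 by 1.00 ± 0.42 (VC+ minus VC-, limma adjusted p = 0.303, 0.303 and 0.321), each higher in VC+ colons, and Mrc1 by -1.49 ± 0.56 (adjusted p = 0.303), lower in VC+ colons. The difference was much smaller for Clec4d (0.01 ± 0.99), Ms4a6d (-0.11 ± 0.56) and Fcer1g (-0.15 ± 0.45), although the SE for Clec4d allows a large difference either way. The count on day 7 was 1 of the 37 when VC+ day 7 replicate 3 was left out, against 74 of all 9097 genes tested. It was 6 when VC- day 7 replicate 1 was left out, against 1213 of 9097. Array quality weights gave 7, of which 1 was higher and 6 were lower in VC+ colons, against 1592 of 9097.

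Whether the day 7 response differed between the genotypes was tested as an interaction (VC+ change minus VC- change), and none of the 39 genes passed, as was so for 0.0% of all genes tested. No gene was at an unadjusted p under 0.05, against 8.48% of all genes tested. The largest values were 1.94 ± 1.15 for Ms4a4c, 1.87 ± 1.94 for Clec4e, -1.19 ± 1.46 for Gpnmb, -1.16 ± 0.71 for Sirpa and 1.11 ± 0.65 for Fcgr1 (limma adjusted p = 0.62 to 0.783). With its other probe set, Clec4e changed by 1.17 in VC+ colons and 1.33 in VC- colons, the reverse order. The resident genes Mrc1 and Cd163 had -0.99 ± 0.86 and -0.77 ± 1.08. For the day 2 response no gene passed either, against 0.022% of all genes tested, and 2 genes (5.41%), Clec7a at -2.38 and Ptprc at -1.48, were at an unadjusted p under 0.05, against 6.46% of all genes tested. The calls made in 1 genotype alone, among them Ms4a4c in VC+ colons and the C1q chains in VC- colons, were not shown to differ between the genotypes.

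The day 7 arrays of 1 genotype differed widely from each other. The median SD over the 39 genes was 0.88 among the VC+ and 1.09 among the VC- day 7 arrays, 0.39 and 0.42 on day 2, and 0.28 and 0.30 on day 0. VC+ replicate 4 was the highest VC+ day 7 array for 34 of the 39 genes. VC- replicate 2 was the highest VC- day 7 array for 30 genes and the lowest for Itgax, Ms4a4c, Ccr2 and Cx3cr1. VC- replicate 1 was the lowest for 31. Colonocyte genes, each taken from its mean over the arrays, averaged -2.23 on VC- day 7 replicate 2. The next lowest array, VC+ day 7 replicate 3, was at -0.84, and the part of this in the levels of the 39 genes was not tested. The mean change over all 39 genes was 1.46, 1.58, 1.67 and 3.19 on the VC+ day 7 arrays, compared with 0.75, 3.04, 1.74 and 2.30 on the VC- day 7 arrays. These 2 highest arrays, VC+ replicate 4 and VC- replicate 2, differed gene by gene. VC+ replicate 4 was above VC- replicate 2 by 2 or more for Ms4a4c (11.09 against 4.33), Clec7a (11.41 against 7.73), Ccr2 (8.78 against 5.47) and Fcgr1 (9.74 against 6.85). It was below by 2 or more for Mrc1 (9.96 against 13.11), Gpnmb (6.62 against 9.54) and Cd163 (10.34 against 13.04), and 22 genes were within 1. Both of these arrays also had the pancreatic Prss2 signal, at 11.20 on VC+ replicate 4 and 14.74 on VC- replicate 2, and its part in these values was not tested. Without the 3 arrays with that signal, 15 of the 37 genes rose in VC+ colons and 10 in VC- colons on day 7 against day 0. Over all 9097 genes tested, 190 and 177 then passed in either direction, against 159 and 963 with all arrays.

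Some pairs of genes were close to each other over the 22 arrays, as a description only, since the arrays share the days and genotypes. C1qb and C1qc had a Pearson correlation of 0.986, Fcer1g one of 0.982 with Ms4a6d and 0.978 with Tyrobp, and Clec4d one of 0.960 with Itgam. Cd163 was most like Mrc1 (0.950) and Gpnmb (0.932). Ms4a4c was most like Fcgr1 (0.872) and Ccr2 (0.850) and least like Mrc1 (0.121), and Ccr2 and Ms4a7 had 0.039.

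Other genes of these cells were counted in the same way on day 7 against day 0. Over all genes tested 1.32% rose in VC+ colons and 5.53% in VC- colons, and 13.7% and 32.4% were at an unadjusted p under 0.05. Of 12 tested further genes of recruited and activated cells, 6 rose in VC+ colons and 8 in VC- colons. The largest in VC+ colons were Chil3, a chitinase-like protein (7.21), and Il1b, the gene of the cytokine interleukin 1β (7.20), and in VC- colons Saa3, an acute-phase protein (9.60), and Il1b (5.76). Of 13 tested further genes of resident macrophages, 0 rose in VC+ colons and 4 in VC- colons (the lectin gene Clec10a by 2.99 and Hmox1, which breaks down haem, by 2.98, besides Stab1 and F13a1), with 4 and 7 at an unadjusted p under 0.05 and medians of -0.02 and 1.31. Of 8 tested ligands and growth factors for these cells, Ccl2, the ligand of CCR2, rose by 5.26 in VC+ colons and 4.46 in VC- colons, Ccl8 by 2.69 and 3.26, and no other. Of 10 tested genes of lipid-handling macrophages, 0 rose in VC+ colons and 2 in VC- colons, which were Ctsd (1.46), a lysosomal protease, and Plin2 (1.10), which coats lipid droplets. Of 7 transcription factors tested, 0 rose in VC+ colons and 1, Cebpb, in VC- colons, by 3.73, with 1 and 4 at an unadjusted p under 0.05. None of 5 genes of ITAM signaling rose in either genotype, with 0 at an unadjusted p under 0.05 in VC+ colons and 1 in VC- colons. Of the 3 other oxidase subunits, 0 rose in VC+ colons and 2 in VC- colons, which were Cyba (1.51) and Ncf1 (1.39). No gene of these lists passed the test between the genotypes on day 7 or the interaction.

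Markers of neutrophils, which share Clec4d, Clec4e, Itgam and the Fc receptors with macrophages, moved with day 7. Of 14 such genes 12 were measured, and their summed log2 level was 56.07 to 91.62 on VC+ day 7 arrays, against 36.93 to 37.75 on VC+ day 0 arrays, and 52.08 to 110.88 on VC- day 7 arrays, against 37.21 to 37.37 on VC- day 0 arrays. On day 0, 9 of the 12 were below the array median on every array of each genotype, S100a8 and S100a9 among them. On day 7, Camp alone was below it on all VC+ arrays, and none on all VC- arrays. Of the 5 that were tested, 2 rose in VC+ colons and 3 in VC- colons, against 1.32% and 5.53% of all genes tested. S100a8 rose by 9.16 and 7.97 and S100a9 by 9.31 and 8.28. The highest sums were on VC+ replicate 4 and VC- replicate 2, and the part of neutrophils in the rise of the shared genes was not tested. Markers of dendritic cells (1 tested), T cells (2 tested), B and plasma cells (5 tested), mast cells (1 tested) and smooth muscle (5 tested) gave 0 rises and 0 falls in both genotypes. At an unadjusted p under 0.05 there were 0, 0, 2, 1 and 2 of them in VC+ colons and 1, 0, 0, 1 and 0 in VC- colons. Over all genes tested the shares at that threshold were 13.7% and 32.4%. The summed log2 level of 8 colonocyte genes was 90.85 to 99.36 on VC+ day 7 arrays, against 90.86 to 99.76 on VC+ day 0 arrays, and 79.70 to 101.75 on VC- day 7 arrays, against 102.86 to 104.11 on VC- day 0 arrays. Among these Slc26a3, the chloride exchanger of surface colonocytes, fell by 2.88 in VC- colons, and no other gene passed in either genotype.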

How the data were processed

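Colon RNA of 22 samples had been hybridised to Affymetrix Mouse Genome 430 2.0 arrays. The deposited values are log2 signals of 45101 probe sets, which the authors made with GCRMA, a background correction and normalization that uses probe sequence (R 2.10.1 per the labels). Of these, 34958 named 1 gene and 932 named several and were left out. Per gene, 1 probe set was kept, that of the widest interquartile range over the arrays, which gave 18194 genes. After the authors' methods, the more variable 50% (9097 genes) were tested with limma 3.58.1 in R 4.3.3, with the 6 genotype and day groups in 1 fit and Benjamini-Hochberg adjustment over all 9097. The 39 genes and the other lists were chosen with earlier results of these data known. All 39 genes were named. Values on every array were given for the resident and recruited sets, the 4 other called genes of largest day 7 change per genotype, genes called in comparisons with at most 10 calls, Fcer1g and Tyrobp, and, chosen after their values were seen, Fcgr1. Of the other lists, up to 2 called genes had values. Alternatives were other filters, probe set choices, fits and left-out arrays. The procedure was tested on simulated data. The number of arrays limits the precision. Fold changes of genes at background understate the change. Promoters were read from RefSeq tables.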

Additional observations from a re-analysis of the deposited data

Results flagged for a closer look

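In groups of 4 or 5 arrays, 9 of 117 gene and group pairs had 1 array far from the others, by Dixon's test at the 95% level, which chance alone gives in about 1 in 20 groups. Of these, 5 were high values of VC+ day 7 replicate 4. There Fcer1g was 10.98 (the other VC+ day 7 arrays 9.16 to 9.33), Tyrobp 11.25 (9.24 to 9.43), Ms4a6d 12.15 (9.91 to 10.21), Ncf4 9.56 (7.55 to 7.88) and Cd53 11.13 (9.37 to 9.56). Aif1 was 9.49 on VC- day 7 replicate 4 (8.36 to 8.56 on the other VC- day 7 arrays). Cd68 was 6.62 on VC+ day 2 replicate 4, the lowest of its group (7.57 to 7.88 on the others). Cd86 was 3.81 on VC+ day 2 replicate 2 (3.20 to 3.25 on the others), and Trem2 was 3.44 on VC- day 7 replicate 1 (3.22 to 3.25 on the others), both close to background.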

How the results depend on the processing

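No gene called on day 7 against day 0 turned its direction under an alternative. Signs of genes that were not called were not compared. The number of the 39 genes called on day 7 against day 0 was 14 in VC+ and 23 in VC- mice, and on day 7 against day 2 it was 21 and 8. Without the variance filter these counts were 7, 14, 10 and 8. When each fit held only its own 2 groups, the first 2 counts were 1 and 0 and the VC- count against day 2 was 0. Array quality weights gave 28 and 34 against day 0 and 24 and 21 against day 2, 10 for VC+ day 2 against day 0, and 7 for VC+ against VC- on day 7. Over all 9097 genes tested, in the same order, the weights gave 1509, 2223, 2645, 839, 1287 and 1592. Fitting only the groups compared gave 2 for VC+ day 2 against day 0, against 48 of all 9097 genes tested. With the replicate block the 4 counts were 7, 15, 10 and 1. The rule for pairing by number asked that every same-numbered pair of arrays deviate together (r above 0.1). So strict a rule cannot show that the arrays were unpaired. It was not met, as 18 of 48 such pairs did, against 36 of 152 other pairs. The mean r was nonetheless higher for same-numbered pairs (0.084) than for others (-0.027), and 13 of 22 arrays were closest to an array of their own number. With Hoxb13 as a term the counts against day 2 were 10 and 3. The VC- count against day 2 was 4 with the probe set of highest mean and 2 with the mean of the probe sets. Without the arrays with Prss2 signal the VC- counts were 10 and 4, and without those with Xist signal all 4 were 0, with 26, 28, 20 and 5 genes at an unadjusted p under 0.05. Leaving out 1 array in turn gave 4 to 21 and 5 to 32 against day 0, 4 to 24 and 0 to 24 against day 2, and 0 to 6 for VC+ against VC- on day 7. The median change of the resident minus the recruited genes, -2.69 in VC+ and -1.02 in VC- mice, was -2.95 to -2.29 and -1.53 to -0.38 with 1 array left out, -1.12 in VC+ mice with the probe set of highest mean and -0.0366 in VC- mice with the mean of the probe sets. Some of these fits held fewer arrays or more genes, and the cause of the shifts in the counts was not tested. Of single gene results on day 7 against day 0, 269 no longer passed and 67 came to pass. Another 2078 were counted as the same and 4 as moved. Where a fit had no test, a shift under the SD of the gene's day 7 arrays counted as the same. With 3 to 5 arrays per group, and Clec4d, Clec4e and Gpnmb at background on day 0, small changes could not be detected.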
